A study of Nothobranchius furzeri with 2 samples.

Results

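The cytochrome P450 genes of the turquoise killifish Nothobranchius furzeri were taken from the deposited gene table as every line whose gene name begins with CYP followed by a digit. This gave 37 of 18529 annotated genes. Fish of the GRZ-AD strain had been injected as embryos with a morpholino against dnd, a gene that germ cells need to survive, or with a control morpholino, so that germ cell–removed fish kept a gonad without germ cells and every group, controls included, carried an injection. RNA of the liver and of the skeletal muscle was counted as unique molecular identifiers (UMIs) per gene by a 3′ method, BRB-seq, in which each fish has its own barcode. The 20 female livers came from germ cell–removed and control females at 1.5 months (young) and 3 months (old), with 5 fish in each group. The 40 muscle libraries came from the same treatments and ages in both sexes, again with 5 in each group. The liver barcodes formed 1 pool and the muscle barcodes another, so tissue and pool cannot be told apart.

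Cytochromes P450 are heme proteins that insert an oxygen atom into their substrate with electrons from a partner, which is POR in the endoplasmic reticulum and a ferredoxin in mitochondria. In the liver some of them take up drugs, pollutants and fatty acids, and others each carry out a fixed step of a pathway, in the synthesis of cholesterol and bile acids, the activation and breakdown of vitamin D, or the making and clearing of steroid hormones and retinoic acid. The vertebrate liver holds most of the body's P450 protein, and several of its P450 genes follow nuclear receptors or the aryl hydrocarbon receptor.

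Of the 37 genes, 17 had at least 10 counts over the 20 female livers, 9 had 1 to 9 counts and 11 had none. Only 3 genes had no count in liver or muscle, which were CYP17A1 and CYP19A1A, steps of androgen and estrogen synthesis, and 1 of the 2 copies named CYP46A1. The members held 9048 counts in the female livers, and 6 of them made up 89.8% of these: CYP24A1 (31.7%), CYP51 (16.5%), CYP8B1 (15.2%), CYP2J2 (2 OF 7) (12.8%), CYP4V8 (10.0%) and CYP1A (3.65%). Family 2 was the largest, with 14 members, of which 9 reached 10 counts in the liver. Several of its members are copies that lie side by side. On scaffold00387, 4 genes named CYP2J2 follow each other with gaps of 6738, 15989 and 8056 bases. On sgr03, CYP2K1 ends 5827 bases before a gene named CYP2W1 (2 OF 5). In family 1, CYP1C2 and CYP1C1 on sgr16 are 1058 bases apart. Reads of such copies may be split or shared between them, so their single values are uncertain. CYP2J2 (3 OF 6) of scaffold00387 overlaps another annotated gene on the same strand, so strand cannot separate their reads. CYP2U1 overlaps a gene on the opposite strand, and how strand was used in counting is not given in the sources used here.

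The female livers differed in depth and in make-up. Germ cell–removed livers held 163968 to 256671 counts and control livers 28062 to 180764, and the removed livers had been sampled down to equal read numbers by the authors while the control livers had not. The 30 genes that passed 1% of any female liver took 35.4 to 41.0% of the counts in young germ cell–removed livers and 54.2 to 57.2% in young control livers, and 30.3 to 35.1% in old germ cell–removed livers and 47.7 to 56.6% in old control livers. After TMM scaling the median gene stood 0.44 (log2) higher in young and 0.46 higher in old germ cell–removed livers, so each change with germ cell removal is also given relative to the median gene. A list of 11 hepatocyte genes took 12.03 to 15.7% of the counts in young germ cell–removed livers against 3.04 to 3.74% in young control livers, and 11.8 to 13.7% in old germ cell–removed livers against 2.91 to 4.26% in old control livers. A list of 14 exocrine pancreas genes, a tissue that lies in and around the fish liver, took 2.07 to 8.48% (median 3.62%) in young germ cell–removed livers against 1.47 to 2.91% (median 2.26%) in young control livers, and 0.816 to 3.28% (median 2.34%) in old germ cell–removed livers against 0.588 to 1.69% (median 1.39%) in old control livers. A pair of adipocyte genes had a median of 0.0131% in young germ cell–removed and 0.0103% in young control livers, and 0.0235% in old germ cell–removed and 0.0113% in old control livers. The part of these differences in the results on P450 genes was not tested. In bulk tissue, fewer cells of a type, less RNA of the listed genes per cell and a larger share taken by other genes cannot be told apart. The hepatocyte list includes fibrinogen genes, which the paper reports as up-regulated in germ cell–removed females. Skeletal muscle, kidney tubule and germ cell and ovary lists were each under 0.01% of every liver.

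Together the 37 genes took a larger share of the counts in germ cell–removed livers than in control livers at both ages. Their share was 0.176 to 0.285% in young germ cell–removed livers and 0.0957 to 0.117% in young control livers. It was 0.373 to 0.648% in old germ cell–removed livers and 0.167 to 0.221% in old control livers. The groups did not overlap in either pair. Of the counts outside the 30 genes that passed 1% of any female liver, the share was 0.299 to 0.456% against 0.218 to 0.273% in the young pair and 0.562 to 0.9304% against 0.346 to 0.485% in the old pair, germ cell–removed livers first. The share of all counts taken by the members other than CYP24A1 was 0.141 to 0.245% in young germ cell–removed livers against 0.0764 to 0.0958% in young control livers, and 0.269 to 0.349% in old germ cell–removed livers against 0.116 to 0.185% in old control livers. These shares are descriptions over few genes and were given no test.

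**Figure D1:**
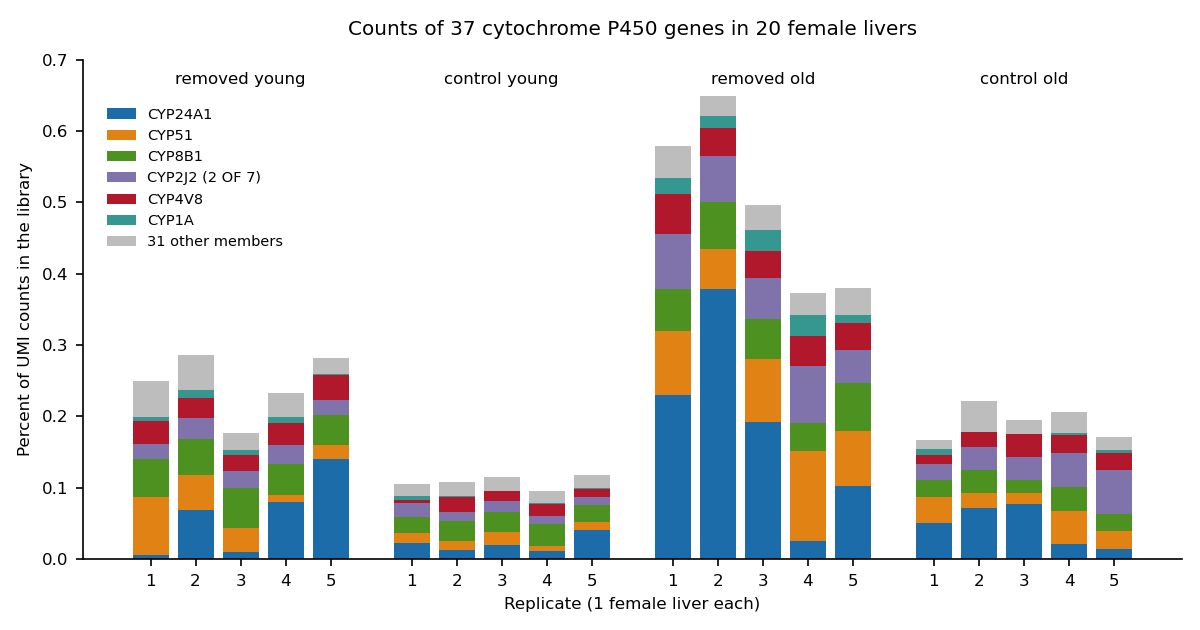
Percent of each female liver's UMI counts that fell on the 37 cytochrome P450 genes (bar height), by replicate fish in the 4 groups (removed, germ cell–removed), with the 6 most counted genes in colour and the 31 others in grey. The bars stand between 0.373 and 0.648% in old germ cell–removed livers and between 0.167 and 0.221% in old control livers, and the CYP24A1 part differs widely between fish of a group.

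In young females, germ cell removal was followed by higher counts of CYP2R1, CYP51, CYP24A1, CYP1A and CYP8B1 and by lower counts of the CYP2J2 (3 OF 6) copy of scaffold00387. The test could be run on 14 of the 37 genes, those with at least 10 counts over the 10 livers compared. Of these, 5 rose and 1 fell by edgeR's quasi-likelihood test at an adjusted p under 0.05, where 9.62% of all 5459 genes tested were called (7.93% higher and 1.69% lower). The median log2 fold change was 0.79 over the 14 members and 0.44 over all genes. On the CPM scale only 2 members did not overlap between the groups, CYP2J2 (2 OF 7) higher and CYP2J2 (3 OF 6) lower, where 7.49% and 1.43% of all genes did so. CYP2J2 (3 OF 6) had at most 3 counts in any of these livers, and its raw counts overlapped. Its lowest control liver, at 14.5 CPM, held 1 count, and its highest germ cell–removed liver, at 10.0 CPM, held 2, so this separation rests on depth. The number of calls was fragile. It was 3 with libraries scaled to the median gene (CYP2R1 and CYP51 higher, CYP2J2 (3 OF 6) lower), 0 by DESeq2's Wald test and 2 or 3 when control replicate 1, 2, 3 or 4, or replicate 5 of the germ cell–removed fish, was left out, whereas plain library sizes gave 7, all higher.

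In old females, CYP24A1, CYP1A, CYP51 and CYP8B1 were among the members higher in germ cell–removed livers, and CYP2K1 was lower. The test could be run on 15 members, of which 5 rose and 1 fell by edgeR's test, where 9.15% of all 5576 genes tested were called (7.23% higher and 1.92% lower). The median log2 fold change was 0.82 over these members and 0.46 over all genes. CYP4V8, CYP1A and CYP51 were among the members higher in every germ cell–removed liver than in any control liver, and 10.2% of all genes tested were separated in this way. No member was lower in every germ cell–removed liver, where 1.18% of all genes were. With libraries scaled to the median gene, CYP24A1, CYP1A and CYP51 were still called higher and CYP2K1 lower. DESeq2's Wald test called 3 members, all higher.

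**Figure D2:**
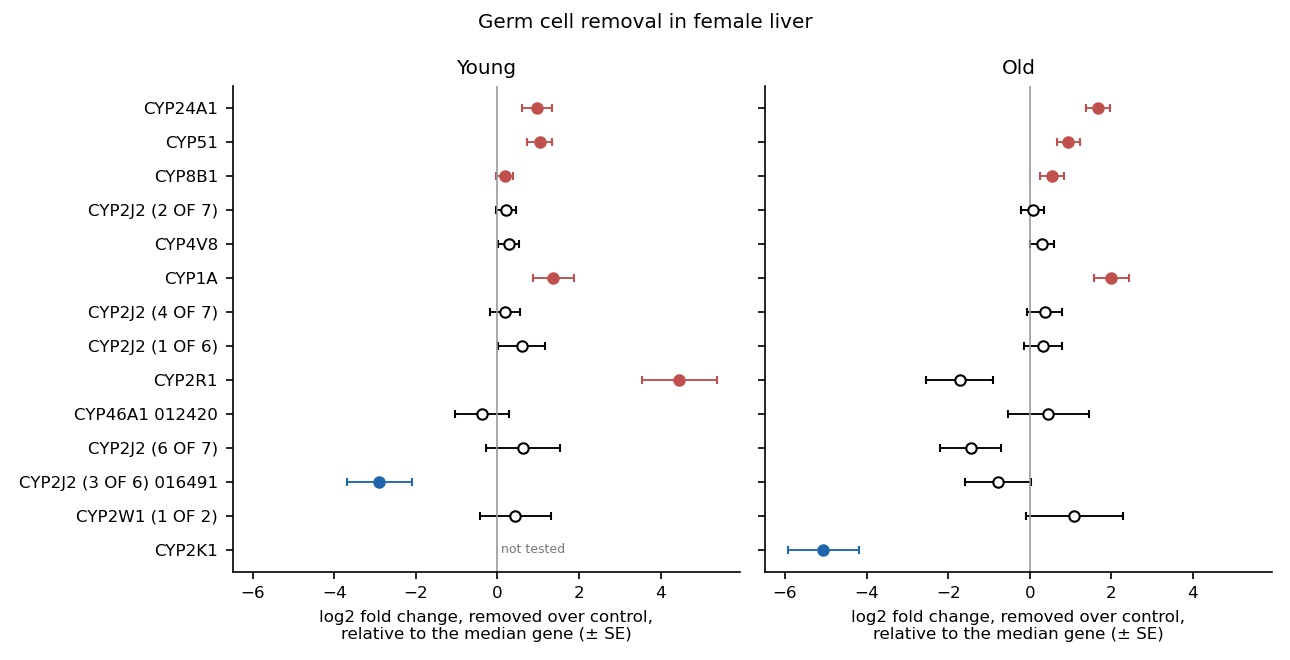
log2 fold change of germ cell–removed over control female livers, less that of the median gene, for members tested in young (left) and old (right) fish (points, with the standard error as bars and n = 5 livers a group). Filled red points were called higher and filled blue points lower at an adjusted p under 0.05, and open points were not called. The calls are against no change and not against the median gene, which lies at 0 here. With libraries scaled to the median gene, CYP8B1 lost its call at both ages, and CYP24A1 and CYP1A lost theirs in young fish. CYP24A1, CYP51, CYP8B1 and CYP1A are red at both ages, and CYP2R1 lies far to the right in young fish alone (4.46, against -1.72 in old fish).

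Old livers were compared with young livers within each treatment. In germ cell–removed females, CYP2J2 (2 OF 7) and CYP1A were higher and CYP2R1 was lower in old livers, 3 calls among 15 members tested, where 3.59% of 6694 genes were called (1.84% higher and 1.75% lower). In control females, CYP2J2 (2 OF 7) and CYP51 were higher in old livers, 2 calls among 13 members tested, where 2.04% of 3385 genes were called (0.945% higher and 1.09% lower). Both comparisons share their livers with the comparisons of germ cell removal. The change with germ cell removal differed between the ages for 1 of 17 members tested, CYP2R1, and for 0.109% of 7349 genes (0.0953% with a higher and 0.0136%, CYP2R1 itself, with a lower effect in old fish). The median gene stood within 0.05 (log2) of no change between the ages in either treatment, and 0.23 higher in the test of the difference between the ages.

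**Figure D3:**
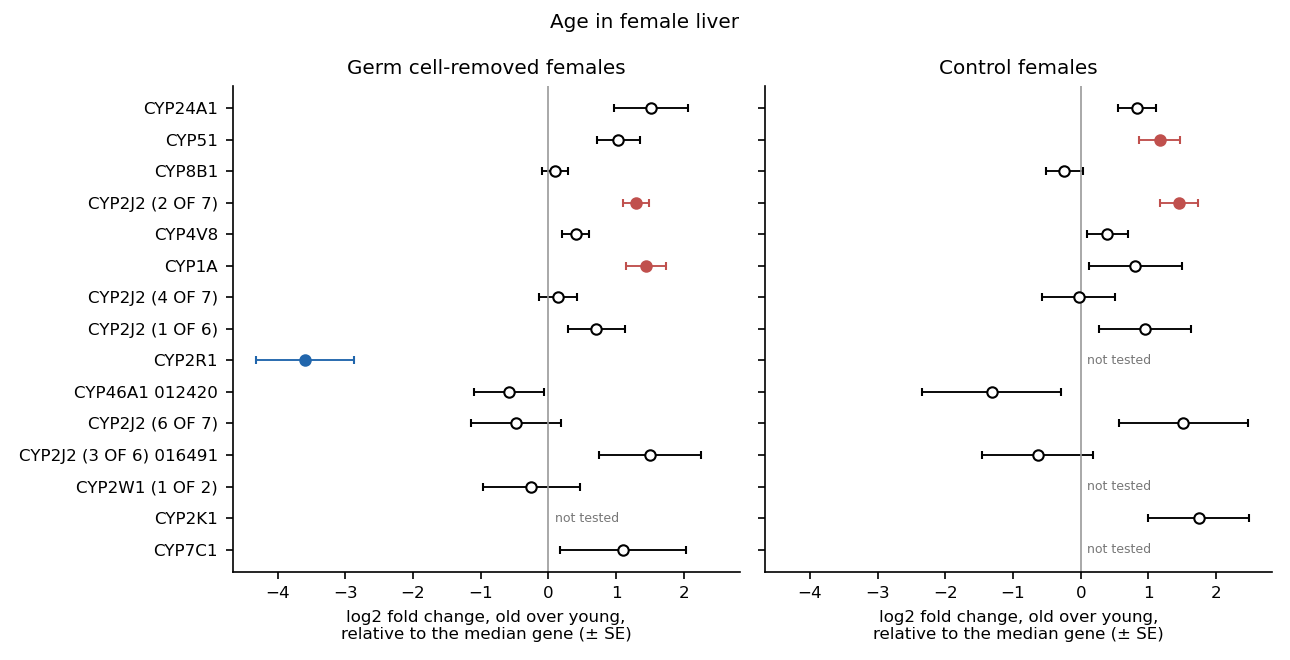
log2 fold change of old over young female livers, less that of the median gene, in germ cell–removed (left) and control (right) females, for members tested (points, with the standard error as bars and n = 5 livers a group). Filled red points were called higher and filled blue points lower at an adjusted p under 0.05, against no change and not against the median gene. CYP2J2 (2 OF 7) lies at 1.29 in germ cell–removed and 1.45 in control females, and CYP2R1 at -3.60 in germ cell–removed females.

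Among the vitamin D genes, CYP2R1 on sgr07 (17327959 to 17331876, plus strand) codes for the liver enzyme that makes the first hydroxylation of vitamin D. It had 43, 39, 3, 9 and 0 counts in the 5 young germ cell–removed livers, against 0, 0, 0, 1 and 0 in the young control livers. These are 211, 170, 12.2, 45.2 and 0 CPM against 0, 0, 0, 7.49 and 0 CPM. The groups overlapped at 0, and 2 of the germ cell–removed fish carried 87.2% of the group's 94 counts. With germ cell removal its log2 fold change was 4.89 ± 0.92 (SE; 4.46 relative to the median gene; edgeR adjusted p = 4.21e-05). With a single count in the controls, the summed counts give a ratio of 49.1 with an exact 95% interval of 8.6 to 1960, which covers counting error only. CYP2R1 passed the minimum of 10 counts through the germ cell–removed livers. The call held when any 1 of the 10 livers was left out (4.2 to 6.73). Each of these fits kept at least 1 of the 2 fish with most counts. They cannot show how far the call rests on that pair. The call was lost by DESeq2 (4.42, adjusted p = 0.0679) and in libraries thinned to the smallest total (3.25, adjusted p = 0.0854).

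In old fish, CYP2R1 had 2, 1, 2, 1 and 2 counts in the germ cell–removed livers, against 0, 1, 0, 4 and 1 in the control livers. All these counts lie near or under the detection floor of 3 counts in a library, and the difference was not called (log2 fold change -1.26 ± 0.83, edgeR adjusted p = 0.402). Without control old replicate 4 the value was -0.41 (adjusted p = 0.884). Within germ cell–removed females CYP2R1 was lower in old than in young livers (-3.58 ± 0.73, edgeR adjusted p = 0.00324), a call that held without each liver in turn. Here too the minimum was passed through the young livers, with 94 counts against 8 in the old livers. Each fit without 1 liver again kept at least 1 of the 2 young fish with most counts. The difference between the effects of germ cell removal at the 2 ages was -5.99 ± 1.35 (edgeR adjusted p = 0.0210). This call was lost without control young replicate 2 (-5.76), control old replicate 2 (-5.98), control old replicate 4 (-5.07) or germ cell–removed young replicate 1 (-5.47), with adjusted p of 0.0533 to 0.509 over these 4 fits. It was also lost without the 3 control livers under 50000 counts (-6.14, adjusted p = 0.253). Of the 109 CYP2R1 counts in this test, 94 lay in the young germ cell–removed livers, so the difference rests largely on them.

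CYP24A1 on sgr10 (34855093 to 34863324, minus strand) codes for the enzyme that breaks vitamin D down, and in mammals it is a standard target of the vitamin D receptor. It was the most counted member, and its highest liver stood 29.4-fold above its lowest in young and 17.2-fold in old germ cell–removed fish. The 5 young germ cell–removed livers had 49.1, 688, 101, 768 and 1442 CPM, against 208, 163.5, 218, 157 and 448 CPM in the young control livers. The germ cell–removed livers lay both below and above the control livers. The log2 fold change was 1.40 ± 0.37 (0.96 relative to the median gene, edgeR adjusted p = 0.00520). It did not stay called when control replicate 1 (1.21), 2 (1.06) or 4 (1.05) was dropped, nor without replicate 5 of the germ cell–removed fish (0.69), with adjusted p of 0.0784 to 0.249. It was also lost with libraries scaled to the median gene (edgeR adjusted p = 0.111), with RLE size factors (1.08, edgeR adjusted p = 0.112) and in thinned libraries (1.02, edgeR adjusted p = 0.209). The young call was lost as well with filterByExpr (0.82, edgeR adjusted p = 0.422) and by DESeq2 (1.02, adjusted p = 0.542).

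In old fish CYP24A1 was again higher after germ cell removal. It stood at 2284, 3836, 1744, 223 and 964 CPM in the old germ cell–removed livers, against 467.5, 534, 665, 227.5 and 151.5 CPM in the old control livers. Of the 5 germ cell–removed fish, 4 were above all controls, and replicate 4 was within their range. Its log2 fold change was 2.13 ± 0.29 (1.67 relative to the median gene, edgeR adjusted p = 1.12e-11), and the call was kept without each liver in turn (1.66 to 2.40). DESeq2 did not call it (1.63, adjusted p = 0.104). The change between old and young livers was not called in germ cell–removed (1.53 ± 0.55, edgeR adjusted p = 0.147) or control females (0.87 ± 0.28, edgeR adjusted p = 0.0686). The first of these was called without germ cell–removed young replicate 5 (2.14, adjusted p = 0.0381) or old replicate 4 (1.82, adjusted p = 0.0445), and the second without control young replicate 5 (1.12, adjusted p = 0.0369) or control old replicate 4 (1.05, adjusted p = 0.0288). The change in control females was also called with RLE size factors (0.90, adjusted p = 0.0238), plain library sizes (1.07, adjusted p = 0.00425) and thinned libraries (1.23, adjusted p = 0.0328), and it was 0.22 (adjusted p = 0.921) without the 3 control livers under 50000 counts. The effects of germ cell removal at the 2 ages did not differ by the test (0.98 ± 0.43, edgeR adjusted p = 0.661).

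CYP27B1, which in the kidney of mammals makes active vitamin D, had 2 counts over the 20 livers, 1 in an old germ cell–removed and 1 in an old control liver. CYP27A1, a mitochondrial enzyme that hydroxylates sterols and vitamin D, had 1 count in the livers and 22 in the muscle libraries. Neither could be tested in the liver.

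**Figure D4:**
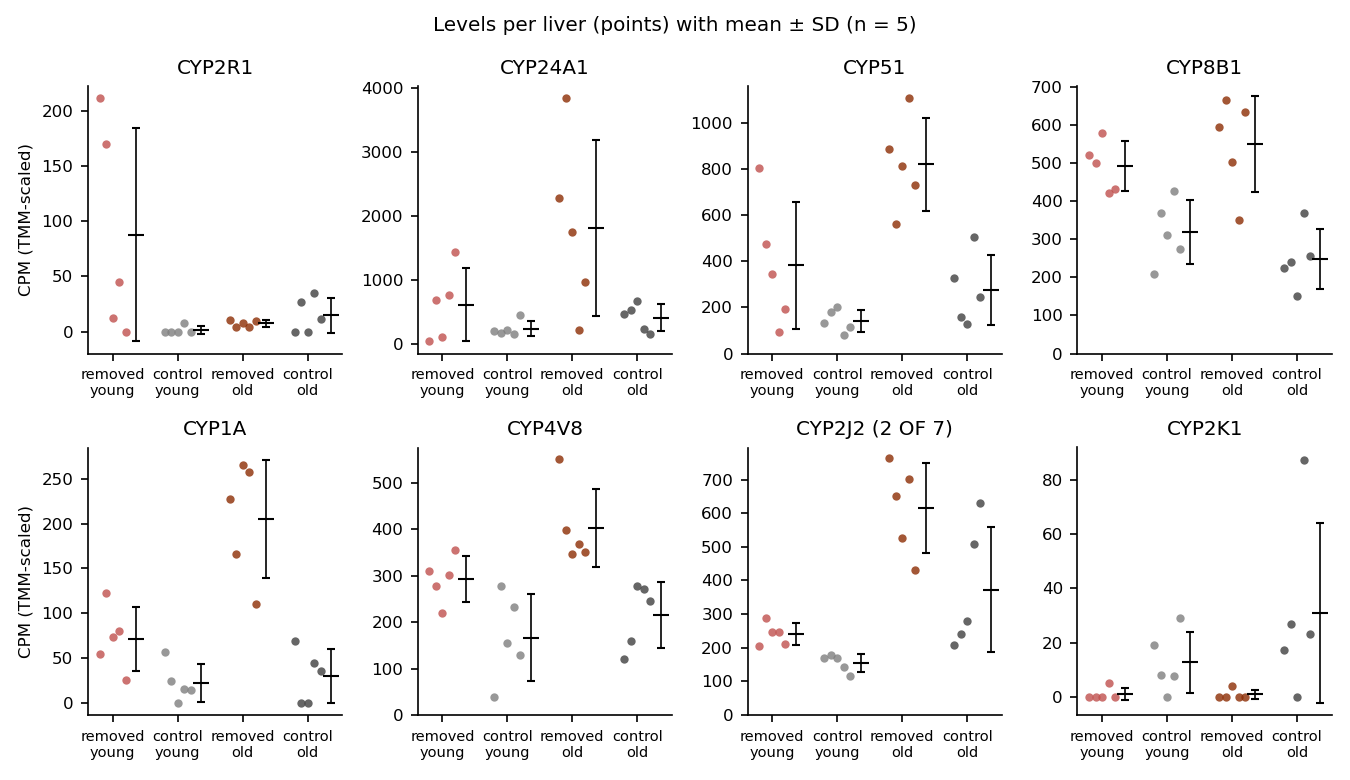
TMM-scaled CPM of 8 members in each female liver (points, in the order of replicates 1 to 5), with the mean and standard deviation of the 5 livers of a group beside them (removed, germ cell–removed). CYP2R1 passes 100 CPM in 2 young germ cell–removed livers only, CYP51 and CYP1A are above every control in all old germ cell–removed livers, and CYP2K1 reaches 87.5 CPM in 1 old control liver.

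Among the sterol and bile acid genes, CYP51 on sgr19 (11781371 to 11786538, minus strand) removes a methyl group from lanosterol in cholesterol synthesis. It had 806, 475, 345, 95.4 and 194 CPM in young germ cell–removed livers, against 133, 179.8, 202, 82.4 and 116 CPM in young control livers, so that 3 of the 5 germ cell–removed fish were above all controls. In old fish it had 890.2, 564, 813, 1110.2 and 733 CPM in germ cell–removed livers and 329, 160.2, 129, 508 and 245 CPM in control livers, with no overlap. The log2 fold change was 1.47 ± 0.31 in young fish (1.03 relative to the median gene, edgeR adjusted p = 0.000362) and 1.41 ± 0.29 in old fish (0.95 relative to the median gene, edgeR adjusted p = 3.17e-05). The old call was kept under all 20 alternatives and the young call when any liver was left out. The young call was lost by DESeq2 (1.13, adjusted p = 0.122). It was also lost with filterByExpr (1.02, edgeR adjusted p = 0.175) and in thinned libraries (1.21, edgeR adjusted p = 0.0863). CYP51 was also higher in old than in young control livers (1.21 ± 0.30, edgeR adjusted p = 0.00469), a call lost without control young replicate 4 (0.89) or 5 (1.04) or control old replicate 1 (1.02), 4 (0.82) or 5 (1.14). In germ cell–removed females the change with age was 1.05 ± 0.32 (edgeR adjusted p = 0.0679), and 1.53 without young replicate 1 (adjusted p = 0.00289).

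CYP8B1 on sgr09 (33265367 to 33268821, plus strand) adds the hydroxyl group that marks cholic acid in mammals. Young germ cell–removed livers had 521, 501, 579.8, 422 and 431 CPM, against 208, 368, 311, 427 and 275 CPM in young control livers. Old germ cell–removed livers had 593, 666, 502, 352 and 633 CPM, against 225, 240.3, 150.2, 368 and 256 CPM in old control livers. In each pair 1 germ cell–removed liver fell within the range of the controls. The log2 fold change was 0.61 ± 0.21 in young fish (edgeR adjusted p = 0.0464) and 1.0 ± 0.29 in old fish (edgeR adjusted p = 0.0111), which is 0.17 and 0.54 relative to the median gene. The young call was lost without any 1 of the 10 livers (0.36 to 0.58, adjusted p of 0.111 to 0.443). Both calls were lost with libraries scaled to the median gene (adjusted p = 0.765 in young and 0.321 in old fish). The old call was also lost with RLE size factors (0.71, edgeR adjusted p = 0.0722) and in thinned libraries (0.33, edgeR adjusted p = 0.614). It was lost as well without the control livers under 50000 counts (0.83, edgeR adjusted p = 0.0661). CYP8B1 was not called between the ages, at 0.11 ± 0.19 in germ cell–removed and -0.20 ± 0.27 in control females (edgeR adjusted p = 0.870 and 0.902).

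The other genes of these pathways were barely counted. CYP7A1A, named for the enzyme that starts bile acid synthesis from cholesterol, had 3 counts in young germ cell–removed livers, 1 in young control livers and none in old livers. CYP7C1 had 3 and 8 counts in young and old germ cell–removed livers, against 1 and 0 in young and old control livers. The measured copy of CYP46A1, named for an enzyme that hydroxylates cholesterol in the mammalian brain, had 19 counts in young germ cell–removed livers against 8 in young control livers, and 14 in old germ cell–removed livers against 2 in old control livers, and was not called (log2 fold changes 0.06 ± 0.67 and 0.91 ± 1.0, edgeR adjusted p = 0.983 and 0.655).

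Among the genes named for the metabolism of foreign compounds, CYP1A on sgr07 (60989467 to 60992885, plus strand) is the classical target of the aryl hydrocarbon receptor in fish. It had 54.0, 122, 73.0, 80.3 and 25.0 CPM in young germ cell–removed livers, against 56.8, 24.5, 0, 15.0 and 14.5 CPM in young control livers. In old fish it had 228, 166, 266, 257 and 110.4 CPM in germ cell–removed livers, against 69.3, 0, 0, 43.8 and 35.0 CPM in control livers. The young groups overlapped and the old groups did not. The control values rest on 0 to 5 counts a liver. Scaled by TMM, the log2 fold change was 1.81 ± 0.51 in young fish (1.37 relative to the median gene, edgeR adjusted p = 0.00999) and 2.46 ± 0.43 in old fish (2.0 relative to the median gene, edgeR adjusted p = 6.16e-07). The young call was lost on dropping control replicate 2 (1.74), 3 (1.43), 4 (1.50) or 5 (1.59), replicate 2 of the germ cell–removed fish (1.38), and with libraries scaled to the median gene (adjusted p = 0.103), and the old call was kept without each liver and at that scaling. In libraries thinned to the smallest total both calls were lost, at 0.99 in young (edgeR adjusted p = 0.522) and 1.04 in old fish (edgeR adjusted p = 0.382). The young call was also lost by DESeq2 (1.52, adjusted p = 0.108) and with RLE size factors (1.53, edgeR adjusted p = 0.0582). CYP1A had 77 counts in young germ cell–removed and 9 in young control livers, so there it passed the minimum through the germ cell–removed livers. Old germ cell–removed livers were higher than young germ cell–removed livers (1.46 ± 0.30, edgeR adjusted p = 0.00317), and this call was kept under all 19 alternatives that were run. In control females the change with age was 0.85 ± 0.69 (edgeR adjusted p = 0.769), and the effects of germ cell removal at the 2 ages did not differ by the test (0.83 ± 0.76, edgeR adjusted p = 0.863). The other family 1 genes, CYP1B1, CYP1C1 and CYP1C2, had 0, 2 and 0 counts over the 20 livers.

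CYP2K1 on sgr03 (59809778 to 59819583, plus strand) has a namesake in rainbow trout that hydroxylates fatty acids and activates aflatoxin. It had 0, 0, 1, 0 and 0 counts in old germ cell–removed livers, against 1, 1, 0, 10 and 2 counts in old control livers, although the control livers were the shallower ones. The log2 fold change was -4.60 ± 0.87 (edgeR adjusted p = 5.82e-06). The summed counts of 1 and 14 put the germ cell–removed livers 44.6-fold lower, with an exact 95% interval of 6.78 to 1880 for counting error only. Control replicate 4 held 71.4% of the control counts. Without it 4 counts remained in the controls, and the gene was under the minimum and could not be tested. DESeq2 gave it no adjusted p. In young fish CYP2K1 had 1 count in germ cell–removed livers and 5 in control livers, too few to test. The ratio of the summed counts was 0.105 (exact 95% interval 0.00221 to 0.934). This interval too covers counting error only and leaves out the spread between fish, so it is no test of a difference. The CYP2W1 (2 OF 5) gene beside it (59825411 to 59828993) had 5 and 3 counts in young and old germ cell–removed livers, against 1 and 0 in young and old control livers.

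Genes named CYP2J2, after a human enzyme that turns arachidonic acid into epoxides, had 6 copies in the table, of which 5 reached 10 counts in the liver. The most counted was CYP2J2 (2 OF 7) on scaffold00387 (66970 to 82399, plus strand). It had 763, 650.4, 527, 703 and 432 CPM in old germ cell–removed livers, against 206, 287, 247, 246 and 212 CPM in young germ cell–removed livers. Old control livers had 208, 240.3, 279, 508 and 629 CPM, against 170.5, 179.8, 171, 142 and 116 CPM in young control livers. Old livers lay above all young livers in both treatments, and 2.35% of all genes did so in germ cell–removed and 0.65% in control females. The log2 fold change with age was 1.31 ± 0.19 in germ cell–removed females (edgeR adjusted p = 7.69e-05) and 1.50 ± 0.28 in control females (edgeR adjusted p = 2.51e-05). The call in germ cell–removed females was kept under all 19 alternatives run, and that in control females was lost without control old replicate 5 (1.07, adjusted p = 0.0718). The difference between these changes was 0.08 ± 0.39 (edgeR adjusted p = 0.9999). With germ cell removal the gene was not called at either age, at 0.65 ± 0.25 in young fish (edgeR adjusted p = 0.0975) and 0.53 ± 0.28 in old fish (edgeR adjusted p = 0.249).

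Of the other CYP2J2 copies, 1 was called with germ cell removal and none with age. CYP2J2 (3 OF 6) at the start of the same scaffold (2648 to 34199, minus strand) had 0, 2, 0, 2 and 0 counts in young germ cell–removed livers, against 3, 2, 2, 3 and 1 in the shallower young control livers. All these counts lie at or under the detection floor of 3 counts in a library, and the gene overlaps another annotated gene on the same strand. The log2 fold change of CYP2J2 (3 OF 6) was -2.46 ± 0.80 (edgeR adjusted p = 0.0348). This call did not survive dropping replicate 1, 3 or 4 of the controls or replicate 1, 3 or 5 of the germ cell–removed fish (-2.68 to -2.26, adjusted p of 0.0529 to 0.115). In old fish it had 2, 4, 3, 3 and 2 counts in germ cell–removed livers, against 0, 1, 2, 2 and 0 in control livers (-0.32 ± 0.80, edgeR adjusted p = 0.881). CYP2J2 (4 OF 7), (6 OF 7) and (1 OF 6) were called in none of the 5 comparisons of female livers. CYP2J2 (4 OF 7) averaged 85.7 ± 27.3 CPM in young germ cell–removed and 49.9 ± 27.3 CPM in young control livers, and 99.1 ± 23.4 CPM in old germ cell–removed and 50.9 ± 22.3 CPM in old control livers (SD, n = 5 each). CYP2J2 (1 OF 6), on sgr17, averaged 40.3 ± 32.0 CPM in young germ cell–removed and 19.9 ± 12.7 CPM in young control livers, and 72.6 ± 35.3 CPM in old germ cell–removed and 38.8 ± 16.3 CPM in old control livers. CYP2J2 (6 OF 7) averaged 15.0 ± 12.4 CPM in young germ cell–removed and 4.90 ± 10.96 CPM in young control livers, and 10.8 ± 8.20 CPM in old germ cell–removed and 19.9 ± 17.9 CPM in old control livers. The sixth copy, on scaffold01171, had no count in any liver. Of the other family 2 genes, CYP2W1 (1 OF 2) had 13 counts in young germ cell–removed livers against 3 in young control livers and 12 in old germ cell–removed livers against 1 in old control livers, and was not called (0.87 ± 0.87 and 1.55 ± 1.18, edgeR adjusted p = 0.632 and 0.498). CYP2U1 had 3 counts in the germ cell–removed livers of each age and none in control livers, and the 2 remaining genes named CYP2W1 had none in any liver.

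Family 4 is known for the hydroxylation of fatty acids at their end. CYP4V8 on scaffold01021 (26939 to 33923, minus strand) averaged 293 ± 49.96 CPM in young germ cell–removed and 167 ± 93.2 CPM in young control livers, and 403 ± 85.0 CPM in old germ cell–removed and 215 ± 70.6 CPM in old control livers (SD, n = 5 each). It was not called at either age, at 0.71 ± 0.26 in young fish (edgeR adjusted p = 0.0645) and 0.76 ± 0.30 in old fish (edgeR adjusted p = 0.0938), although the old groups did not overlap (347 to 551 CPM against 121 to 279 CPM, germ cell–removed livers first). CYP4T8 had 12 counts and CYP4F3 none in the 20 livers. Of the genes of steroid hormone and retinoid metabolism, CYP11A had no count in the livers, CYP11C1, a step of fish androgen and cortisol synthesis, had 1, CYP21A2, a step of cortisol synthesis, had 2, and CYP26C1, which breaks retinoic acid down, had 1. CYP27C1, which makes vitamin A2 in zebrafish, had none. For a gene at 0, the limit of 3 counts corresponds to 11.8 to 80.1 CPM in a single liver, so low expression was not detectable at this depth.

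Of 24 genes for electron donors and heme, 18 could be tested against germ cell removal at each age. POR (1 OF 2), the reductase that passes electrons to P450s, was higher in young (0.79 ± 0.24, edgeR adjusted p = 0.0199) and old germ cell–removed livers (1.26 ± 0.32, edgeR adjusted p = 0.00171). ALAS1, the first step of heme synthesis in the liver, was lower in young germ cell–removed livers (-1.60 ± 0.25, edgeR adjusted p = 1.05e-06), and was not called in old fish (-0.96 ± 0.37, edgeR adjusted p = 0.0794). In old fish PGRMC1 and HMOX1, which bind and break down heme, were also higher (1.19 and 1.14, edgeR adjusted p = 0.0111 and 0.0177). This gives 2 of 18 called in young fish, 1 higher and 1 lower, where 9.62% of all genes were called, and 3 of 18 in old fish, all higher, where 7.23% of all genes were higher and 1.92% lower. The share in young fish is near that of all genes. The list's median was 0.70 in young fish, with 0.44 for all genes, and 0.44 in old fish, with 0.46 for all genes. With libraries scaled to the median gene the calls for POR (1 OF 2), PGRMC1 and HMOX1 were lost, and in thinned libraries HMOX1 stood at -0.08 (adjusted p = 0.967).

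Of 27 transcription factors known to act on P450 genes in other species, 8 could be tested in young and 10 in old fish. ESR1, the estrogen receptor, was the only one called in young fish (-4.03 ± 0.43, edgeR adjusted p = 5.55e-12). This is 1 of 8, where 9.62% of all genes were called (7.93% higher and 1.69% lower). In old fish ESR1 (-3.16 ± 0.41, edgeR adjusted p = 1.42e-12) was lower and FOXA3, a liver factor, was higher in germ cell–removed livers (1.83 ± 0.39, edgeR adjusted p = 9.27e-05). These are 2 of 10, where 9.15% of all genes were called (7.23% higher and 1.92% lower). VDRB, a vitamin D receptor, was not called, at -0.46 ± 0.57 in young and -0.26 ± 0.42 in old fish (edgeR adjusted p = 0.714 and 0.797). NR0B2A, named for the receptor that represses bile acid synthesis in mammals, was at 2.79 ± 0.98 in young and 1.49 ± 0.71 in old fish without being called (edgeR adjusted p = 0.0573 and 0.185). The list's median was 0.09 in young and 0.75 in old fish, with 0.44 and 0.46 for all genes.

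Of 21 partners in bile acid, vitamin D and retinoid metabolism, 2 of 11 tested were higher and none lower in young germ cell–removed livers, namely HSD17B4 (1.40 ± 0.37) and SCP2B (1.09 ± 0.31), both of which act in the peroxisome on bile acid precursors (edgeR adjusted p = 0.00609 and 0.0104). Of all genes 7.93% were higher and 1.69% lower in young fish. In old fish HSD3B7 (1.57 ± 0.44) and SCP2B (1.26 ± 0.37) were higher, and RBP4, which carries retinol in blood, was lower (-1.35 ± 0.29; edgeR adjusted p = 0.00833, 0.0130 and 0.000119), 3 of 9 tested, where 7.23% of all genes were higher and 1.92% lower. With libraries scaled to the median gene only RBP4 kept its call. The list's median was 0.72 in young and 0.98 in old fish, with 0.44 and 0.46 for all genes. Of 23 genes for conjugation and epoxide hydrolysis, 5 of 14 were higher and none lower in young fish, where 7.93% of all genes were higher and 1.69% lower. In old fish 3 were higher and 1 lower of 14, where 7.23% of all genes were higher and 1.92% lower. GSTT1A, a glutathione transferase, stood at 1.22 ± 0.19 in young and 1.01 ± 0.28 in old fish (edgeR adjusted p = 9.74e-07 and 0.00578), and SULT6B1, a sulfotransferase, was lower in old germ cell–removed livers (-2.0 ± 0.67, edgeR adjusted p = 0.0357). Both genes named GSTA5, also glutathione transferases, were among those higher at each age, and in thinned libraries 1 of them stood at -0.03 in old fish. GSTZ1 (1.13) and TPMT (1.95), a methyltransferase, were the others in young fish. At the scaling to the median gene, 3 of the 5 calls in young fish and 3 of the 4 in old fish were lost.

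The 4 lists were also tested with age. In germ cell–removed females FOXA3 was higher in old livers (1.02 ± 0.27, edgeR adjusted p = 0.0297), while AKR1D1 (2 OF 2), a reductase of bile acid synthesis (-2.48), and 1 GSTA5 gene (-0.85) were lower. These are 1 of 12 transcription factors, 1 of 14 partner genes and 1 of 14 conjugation genes tested. None of 19 electron donor and heme genes was called. Of all genes 1.84% were higher and 1.75% lower. In control females HMOX1 (2.56 ± 0.56, edgeR adjusted p = 0.000598) and RBP4 (0.87) were higher in old livers, and ALAS1 (-1.24 ± 0.31, edgeR adjusted p = 0.00469) and AKR1D1 (2 OF 2) (-4.38) were lower. These are 2 of 10 electron donor and heme genes and 2 of 10 partner genes tested. None of 7 transcription factors or 12 conjugation genes was called. Of all genes 0.945% were higher and 1.09% lower. The RBP4 call was lost with libraries scaled to the median gene. The effect of germ cell removal differed between the ages for none of the genes of the 4 lists that could be tested.

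Liver and muscle of females were compared within each treatment, with age in the model and the libraries taken as unpaired. A member needed at least 10 counts over the libraries compared, and 28 of the 37 had fewer than 10 in all 40 muscles, so that most members tested passed this minimum through their liver counts and the numbers of calls below are largely set by it. In germ cell–removed females 14 of 16 were called higher in the liver, with CYP1C1 lower and CYP7C1 not called, where 47.3% of 8526 genes were called, 26.5% higher and 20.8% lower. In control females 12 of 14 were called higher, with CYP1C1 lower and CYP46A1 not called, where 47.7% of 7142 genes were called, 15.5% higher and 32.3% lower. The largest differences were those of CYP4V8, at 8.02 ± 0.37 in germ cell–removed and 7.36 ± 0.57 in control females (log2, edgeR adjusted p = 2.04e-30 and 7.28e-15), where the 20 female livers held 908 counts and the 20 female muscles 1. CYP4V8 thus passed the minimum through its liver counts, and its adjusted p has the same limit as the numbers of calls. Of the members most counted in the liver, CYP51 stood at 7.87 ± 0.42 and 5.38 ± 0.46, CYP8B1 at 6.59 ± 0.29 and 6.32 ± 0.44, and CYP24A1 at 4.94 ± 0.42 and 2.89 ± 0.34, germ cell–removed females first in each (edgeR adjusted p at or below 2.89e-10 for all 6). CYP51 and CYP8B1 had 8 and 10 counts in the 20 female muscles, against 1494 and 1374 in the 20 livers. Their adjusted p therefore have the limit given for CYP4V8. CYP24A1 had 116 counts in the female muscles. Hepatocyte genes took up to 0.196% of a muscle library's counts, and their part in the few counts of liver P450 genes in muscle was not tested. Against muscle, the median gene stood at 0.19 in germ cell–removed and -0.62 in control livers.

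**Figure D5:**
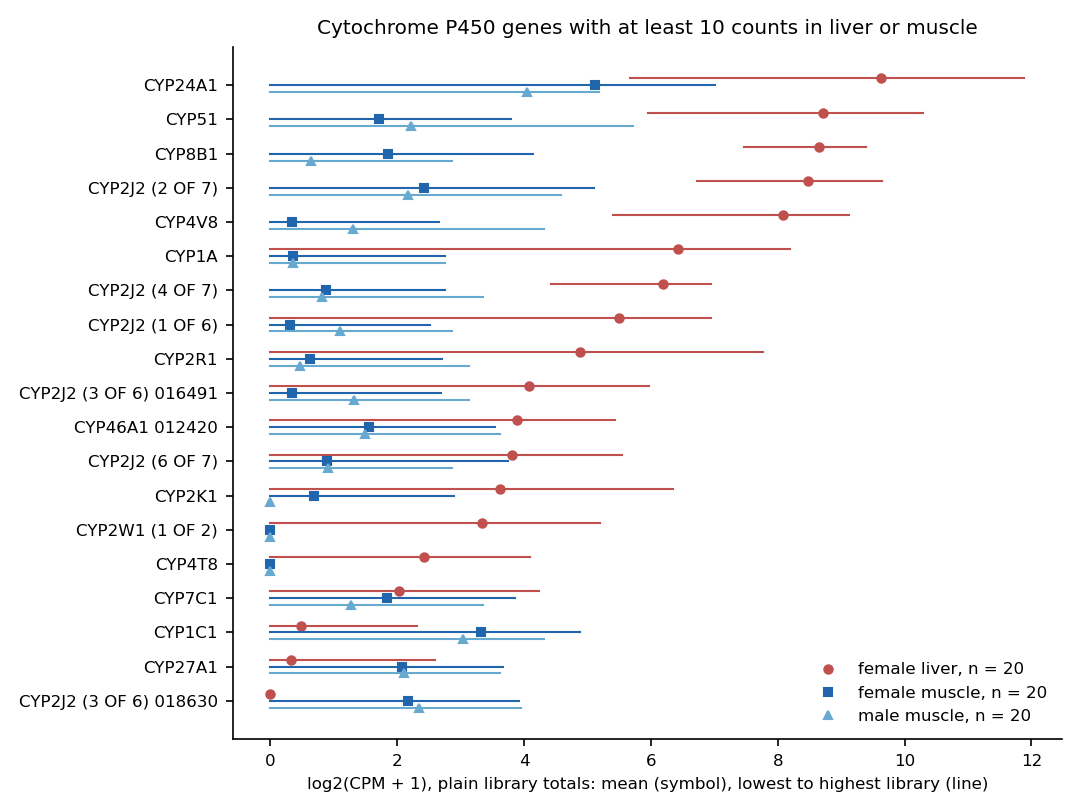
log2(CPM + 1) on plain library totals of members with at least 10 counts in female liver or in muscle. Symbols are the mean over 20 female livers, 20 female muscles or 20 male muscles, and lines run from the lowest to the highest library. CYP4V8 averaged 271 CPM in female liver and 0.266 CPM in female muscle, and CYP1C1, CYP27A1 and CYP2J2 (3 OF 6) of scaffold01171 are the members whose means lie to the right in muscle.

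CYP1C1, a fish gene of the family of CYP1A, was the 1 member called lower in the liver. It had 2 counts in the 20 livers and 58 in the 40 muscles, where 31 libraries had at least 1. Its log2 difference was -2.72 ± 0.69 in germ cell–removed and -3.56 ± 0.96 in control females (edgeR adjusted p = 0.000692 and 0.00197). CYP1C1 passed the minimum through its muscle counts and had no count in any control liver, so these calls too are largely set by the minimum. CYP2J2 (3 OF 6) of scaffold01171 had 28 counts and CYP27A1 22 counts in muscle, against 0 and 1 in the livers. In all, 11 members had more counts in the 40 muscle libraries than in the 20 female livers, as raw sums over unequal numbers and depths of libraries. Some rest on 1 or 2 muscle counts, such as CYP4F3 and CYP1C2. CYP7C1 is among them with 15 against 12 counts, but averaged 3.07 CPM in liver against 2.58 in female and 1.41 in male muscle. The 37 genes took at most 0.0227% of a muscle library's counts.

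In muscle only 1, 4, 2 and 4 members had enough counts to be tested against germ cell removal in young females, old females, young males and old males, and none was called by edgeR or by DESeq2. At an unadjusted p under 0.05 edgeR had 1, CYP2J2 (2 OF 7) in old females (-2.42 ± 1.0, edgeR adjusted p = 0.782). Few genes were called in muscle at all, at 0.106% of those tested in young females (0.0213% higher and 0.0852% lower), 0.198% in old females (all lower), 0.136% in young males (all higher) and 0.0% in old males. CYP24A1 was the most counted member there. In young females it averaged 28.4 ± 36.7 CPM in germ cell–removed and 9.42 ± 11.6 CPM in control muscle, and in old females 37.9 ± 32.3 CPM in germ cell–removed and 47.4 ± 38.5 CPM in control muscle. In young males it averaged 15.9 ± 10.1 CPM in germ cell–removed and 14.1 ± 18.5 CPM in control muscle, and in old males 17.6 ± 13.7 CPM in germ cell–removed and 15.1 ± 11.7 CPM in control muscle (SD, n = 5 each). The groups overlapped in each of these 4 pairs.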

How the data were processed

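Per the labels and the study's methods, UMIs and barcodes were read from the first read, female liver and muscle reads were randomly sampled, reads were trimmed with Trim Galore 0.6.7 and mapped to the GRZ assembly with HISAT2 2.2.1, and the authors deposited UMI counts per gene from featureCounts 2.0.1 and UMI-tools, without normalization. Their library sheet lists the control female livers and 4 muscle libraries as not sampled. Libraries were assigned to fish by the deposited column names and that sheet. The 20 male liver columns were not used, since they fill 1877 lines more than the 18529 gene names. The members and gene lists were chosen with earlier results of these data known. All genes with at least 10 counts in total were tested with edgeR 4.0.16 in R 4.3.3 (TMM, quasi-likelihood, Benjamini-Hochberg over all genes tested, threshold 0.05), and the standard error is the log2 fold change over the root of F. Within a group the fish are separate animals, and no 2 libraries of a group agreed within counting error (120 pairs, with 1.462 as the lowest chi-square divided by its degrees of freedom). CPM values use TMM-scaled totals over the female livers or over the muscles. A count of 3 was the detection floor, and intervals and floors cover counting error only. Alternatives were DESeq2 1.42.0, RLE size factors, totals without scaling (plain library sizes), removal of genes over 1% of a library, filterByExpr, every gene with at least 1 count, thinned libraries (seed 1), the replicate number as a block and leaving out each library. Scaling to the median gene and leaving out control livers under 50000 counts were chosen after seeing the data. Genes named are members called in a female liver comparison, the 10 highest in liver and 5 highest in muscle, vitamin D, bile acid, sterol, CYP1A, CYP19A and CYP26 genes, and called list genes. Of the genes this rule names, 1 member counted among those higher in old germ cell–removed livers is not reported here. The test was checked on simulated data in which only well-counted genes were changed, so the check does not cover calls that rest on few counts. Tables and figures used Python 3.11.15, pandas 2.3.3, scipy 1.17.1 and matplotlib 3.10.9.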

Additional observations from a re-analysis of the deposited data

Results flagged for a closer look

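CYP2R1 was called by edgeR for a different effect of germ cell removal in old and young female livers (-5.99, log2, adjusted p = 0.0210). The effect was positive in young fish and not called in old fish. Of its 109 counts, 94 lay in young germ cell–removed livers, 87.2% of these in 2 fish. Young control, old germ cell–removed and old control livers held 1, 8 and 6. The call was lost in 9 of 29 alternatives, among them DESeq2 (-5.92, adjusted p = 0.441) and thinned libraries (-5.07, edgeR adjusted p = 0.608). Of 55 combinations of a member and a group of 5 libraries with at least 10 counts, 4 had 1 library far from the rest by Dixon's test. The threshold is passed by 1 in 20 groups of normally distributed values, and its rate for low counts at unequal depth was not tested. CYP24A1 stood at 448 CPM in control young female liver replicate 5 and at 92.6 CPM in germ cell–removed young female muscle replicate 5. CYP4V8 stood at 551 CPM in germ cell–removed old female liver replicate 1, and CYP51 at 38.1 CPM in control old male muscle replicate 4.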

How the results depend on the processing

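Against 6 members called with germ cell removal in young female livers, RLE size factors, scaling to the median gene and leaving out control livers under 50000 counts each called 3, and DESeq2, filterByExpr (7 members tested) and thinned libraries each called 0; leaving out 1 library gave 2 to 5. Against 6 in old livers, DESeq2 called 3 and thinned libraries 2, and leaving out 1 library gave 4 to 6. With age in control livers (2 called), every gene with at least 1 count gave 1, and leaving out 1 library gave 0 to 2, with 0 without control old replicate 5. With age in germ cell–removed livers (3 called), every gene with at least 1 count gave 5, and leaving out 1 library gave 3 or 4. The 1 call on the difference between ages became 0 under RLE size factors, plain library sizes, DESeq2, filterByExpr, thinned libraries and without the shallow control livers, and leaving out 1 library gave 0 or 1. For liver against muscle, filterByExpr called 8 (8 tested) in germ cell–removed and 5 (5 tested) in control females, where 15 and 13 had been called. Thinned libraries called 7 in control females. Leaving out 1 library gave 15 in germ cell–removed and 12 or 13 in control females. In muscle the 4 counts stayed at 0 under all alternatives. The difference of the CYP1A effects between ages turned to -0.15 without the shallow control livers. Correlations of same-numbered libraries ran from -0.32 to 0.23 in female livers, -0.28 to 0.49 in muscle and -0.37 to 0.23 over the female libraries of both tissues. The last range mixes pairs within a tissue with pairs between tissues. Whether a liver and a muscle came from the same fish was not tested. With the replicate number as a block, the members called with age in germ cell–removed livers were 5, not 3, CYP24A1 (1.83, adjusted p = 0.0326) and CYP51 (1.26, adjusted p = 0.00271) being added, and the young CYP2J2 (3 OF 6) call was lost (adjusted p = 0.0591). Over 53 member values and 1291 refits, 1191 kept side and direction, 86 lost and 13 gained a call, and 1 turned. Of these refits 783 were of liver against muscle, with 2 of the lost calls. A refit was counted only where the member was tested and had an adjusted p. Members that fell under the minimum or were left untested by filterByExpr are therefore not among the losses. In liver against muscle such members are part of the fall to 8 and 5 calls under filterByExpr. Depth limits the control livers most, where 1 count is 7.49 to 26.7 CPM.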
